A study of Homo sapiens with 10 samples.

Results

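The cytosolic ribosomal protein genes encode the protein part of the ribosome of the cytoplasm, and they were followed here in BEAS2B cells after miRNA transfection. A gene was taken when its symbol was RPL or RPS with a number and at most a closing A or X, or when it was RPLP0, RPLP1, RPLP2 or RPSA, and read-through and pseudogene symbols were left out. These symbols numbered 77 of the 52402 in the count files, 46 for the large (60S) subunit and 31 for the small (40S) subunit. The filter on low counts passed 73 of them and 14884 genes in all.

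Each ribosome carries about the same number of copies of nearly every one of these proteins, and free copies are degraded, so cells make them at matched rates. Their short mRNAs are abundant in every cell type, and most begin with a C followed by a run of pyrimidines, the 5′ terminal oligopyrimidine (TOP) motif, through which the kinase mTORC1 and the protein LARP1 govern their translation and stability. Some members act outside the ribosome: RPL5 and RPL11 bind MDM2 and so stabilise p53, and RPS6 is phosphorylated downstream of mTORC1.

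BEAS2B is a line of human bronchial epithelial cells, taken by the study as normal lung cells. All cells received Lipofectamine 2000, and RNA was harvested at 48 h. The groups were a scrambled miRNA (miRcontrol), a mimic of miR-3124-5p (miR3124_mimic), a mimic of miR-200b-3p (miR200b_mimic) and an inhibitor of miR-92b (miR92b_inhibitor), each at 50 nM, and both mimics with the inhibitor (the 3-miRNA mixed group), whose dose of each miRNA is not given in the sources used here. Each group had 2 libraries, 10 in all, and mRNA was counted per gene.

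The libraries held from 13587666 to 18503890 counts. Within each group the pair of libraries differed by more than counting error (chi-square per degree of freedom from 1.78 to 2.76), but the labels do not say whether they were separate transfections, so every p-value here measures a spread that may be technical. Mature miRNAs are not in these counts, so delivery was not checked on them. ZEB2, a known target of the miR-200 family, fell by 2.27 on the log2 scale in miR200b_mimic (edgeR's quasi-likelihood test, adjusted p = 3.61e-23). KRT8 and KRT18, keratins of simple epithelia, were at no less than 794.6 and 600.5 normalized CPM (counts scaled to library size) in every library. The epithelial cadherin CDH1 was at no more than 0.172 CPM in miRcontrol and the mesenchymal filament gene VIM at 3707 CPM or more, so the control cells carried markers of both kinds. PTPRC and CD3E of leukocytes and PECAM1 of endothelium had at most 4 counts in any library. Of 5 leukocyte and 4 endothelial markers, those that passed the filter were CD68, at 17.3 to 40.7 CPM, and CDH5, at no more than 4.03 CPM. These markers differed between groups. CD68 was higher with the inhibitor by 0.58 on the log2 scale (adjusted p = 5.08e-08) and lower in miR200b_mimic by 0.52 and in the mixed group by 0.20. CDH5 went from 0.0572 and 0.0597 CPM in miRcontrol to 4.03 and 2.49 CPM in miR3124_mimic (adjusted p = 2.53e-10). Of 6 mesenchymal markers there, VIM fell by 2.23 on the log2 scale, ZEB2 rose by 0.53 and 4 had no call. Of the 7 epithelial markers tested in miR3124_mimic, KRT8 rose by 0.49 and KRT18 by 0.36, KRT19 fell by 3.40, and 4 had no call. In miR200b_mimic all 7 epithelial markers tested rose, and 5 of the 6 mesenchymal markers fell and 0 rose. In the mixed group 5 of the 7 epithelial markers rose and 1 fell, and 5 of the 6 mesenchymal markers fell and 0 rose. With the inhibitor 2 epithelial markers fell and 0 rose, and 3 mesenchymal markers rose and 2 fell. Of all genes, 25.7% were higher and 25.3% lower in miR3124_mimic, and 21.4% and 19.1% in miR200b_mimic. These shares were 17.5% and 18.2% with the inhibitor, and 21.5% and 21.1% in the mixed group. The part of these markers in the members' values was not tested.

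The sequences that the transfected miRNAs would read are shown first, since they fix which ribosomal protein mRNAs hold a match. A miRNA pairs with mRNA chiefly through its seed, bases 2 to 8 from the 5′ end, given in capitals in the mature sequences from RefSeq (GRCh38.p14). The labels do not say which arm of miR-92b the inhibitor blocks, so both arms are printed.
hsa-miR-3124-5p: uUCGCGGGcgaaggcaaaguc
hsa-miR-200b-3p: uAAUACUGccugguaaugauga
hsa-miR-92b-5p: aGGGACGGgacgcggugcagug
hsa-miR-92b-3p: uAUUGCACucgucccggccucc
The complement of the miR-3124-5p seed, CCCGCGA, was searched on the sense strand of 1 principal GENCODE v29 transcript per gene. It occurred in 3 of the 77 members, or 3.90%, and in 7.46% of the 12294 tested genes with such a transcript. No member held it in the 3′UTR, where 0.529% of the tested genes did. RPS29 and RPL3 held it in the coding sequence and RPL27A in the 5′UTR of RPL27A-201, a transcript of 4916 bases. The sites of RPS29 (chr14:49586311-49586317, minus strand, bases 60 to 66 of RPS29-201) and of RPL3 (chr22:39315461-39315467, minus strand, bases 764 to 770 of RPL3-201), both GRCh38, are shown with the match in capitals, since these genes return in the results.
RPS29 coding site: ctggagccaCCCGCGAaaattcggc
RPL3 coding site: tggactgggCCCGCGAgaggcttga
The match to miR-200b-3p, CAGTATT, lay in the 3′UTR of 3 members, RPL11, RPL37A and RPS23, or 3.90% against 15.5% of the tested genes. The match to miR-92b-3p, GTGCAAT, lay in the 3′UTR of RPL11 and RPL37, or 2.60% against 9.72% of the tested genes. The match to miR-92b-5p, CCGTCCC, lay in the 3′UTR of none of the 77, against 3.31% of the tested genes. Anywhere in the transcript, the miR-92b-5p match lay in 2.60% of the members and 12.6% of the tested genes. For miR-92b-3p these shares were 5.195% and 15.45%, and for miR-200b-3p 6.49% and 24.2%. RPL5 held the miR-92b-5p match in its coding sequence, and RPSA and RPS26 held the miR-92b-3p match in theirs. The transcripts searched for RPL37A, RPS23 and RPL37 have 3′UTRs of 2685, 2754 and 7245 bases, against 25 in RPS12, 49 in RPL36 and 98 in RPS29. Whether the counted mRNAs carry these long ends was not tested. The shares were not adjusted for 3′UTR length. A match is a description of letters in 1 annotated transcript and not a shown binding site.

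The annotated starts were read next, because the TOP motif is the feature these genes are known for. A start counted as TOP when the annotated first base was a C followed by at least 4 pyrimidines. Of the 62 members with a RefSeq promoter entry, 46 had such a start, or 74.2%, against 5.14% of the 27305 genes with an entry. The share was 73.7% for the 60S and 75% for the 40S genes. It was 8.70% of 69 mitochondrial ribosomal protein genes, whose proteins build the separate ribosome of the mitochondrion. The starts of 4 members whose values return below are shown, each with 5 bases before the annotated start and 15 from it, and with the pyrimidine run in capitals.
RPLP1, chr15:69452813-69452832, plus strand: gagagCCCCTTTCCTCagct
RPS12, chr6:132814564-132814583, plus strand: gaggcCTCTTTCCCTgccgc
RPL36, chr19:5690290-5690309, plus strand: ccagcCCTTCCgccacggcc
RPS29, chr14:49598696-49598715, minus strand: gcagcTggcagcggtggttg
RPLP1, RPS12 and RPL36 had TOP starts by this rule, and the start in the RPS29 entry did not. The RPS29 entry starts at chr14:49598710, and bases 60 to 66 of RPS29-201 lie at chr14:49586311-49586317. Whether this entry is the start of RPS29-201, or of the mRNA counted, was not checked.

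As a group, the members took a smaller share of all counts in miR3124_mimic and a larger share in miR92b_inhibitor than in miRcontrol. They held 3.23% and 3.26% of the counts in the miRcontrol libraries, where the Wilson 95% interval of the first was 3.22% to 3.24% and covers counting error only. In miR3124_mimic they held 2.83% and 2.92%, and in miR200b_mimic 3.17% and 3.14%. In miR92b_inhibitor they held 3.76% and 3.67%, and in the 3-miRNA mixed group 3.32% and 3.37%. The libraries of no 2 groups overlapped. The group means were 3.25% ± 0.0251, 2.88% ± 0.0643, 3.15% ± 0.0243, 3.72% ± 0.0635 and 3.34% ± 0.0354 in that order (SD, n = 2), which put miR3124_mimic at 0.887 and miR92b_inhibitor at 1.14 of the control share. An exact two-sided permutation test of 2 libraries against 2 cannot give a p below 0.333. In these bulk samples, fewer cells of a type and less RNA per cell cannot be told apart.

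**Figure D1:**
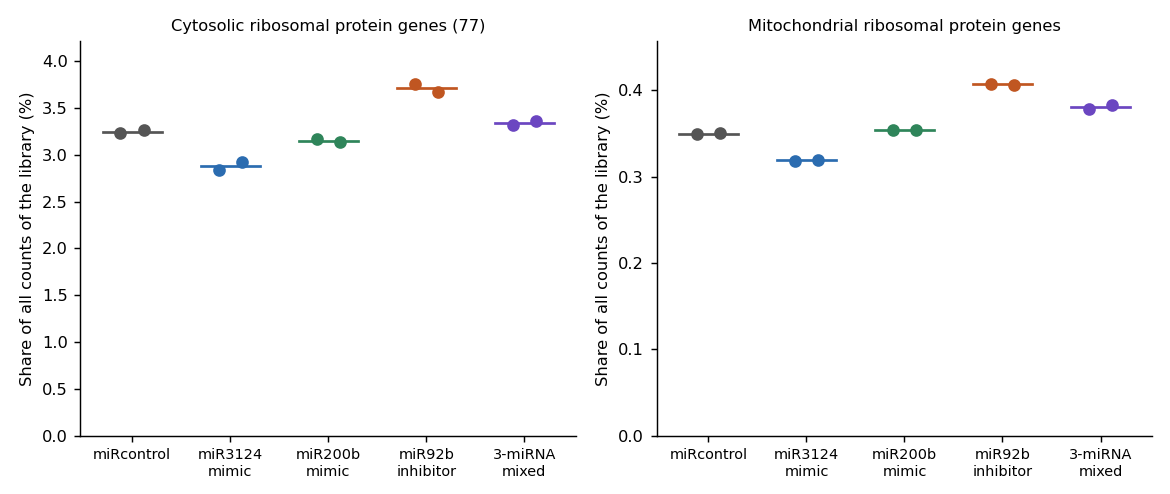
Share of all counts (%, vertical axis from 0) on the 77 cytosolic and, on a scale of its own, the 78 mitochondrial ribosomal protein genes in each of the 10 libraries, with a point per library and a line at the mean of the 2. The cytosolic share ran from 2.83% in a miR3124_mimic library to 3.76% in a miR92b_inhibitor library.

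Other large classes of counts differed between the groups as well. The share of counts from the mitochondrial genome was 6.19% in miRcontrol and 7.27% in miR3124_mimic, and the actin genes ACTB and ACTG1 together held 1.28% and 0.896%. Out of the counts outside the mitochondrial genome, the members' share in miR3124_mimic was 0.897 of the control share and in miR92b_inhibitor 1.15. The ratio of 60S to 40S counts was 1.93 ± 0.0137 in miRcontrol, 1.88 ± 0.00384 in miR3124_mimic and 1.96 ± 0.0134 in miR92b_inhibitor (SD, n = 2). Symbols of ribosomal protein pseudogenes, whose sequences resemble the members, held 0.0453% to 0.0527% of the counts as group means. The part of any of these in the members' values was not tested.

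Most of the members fell in miR3124_mimic. Of the 73 tested, 59 fell and 0 rose, where 25.3% of all genes tested were lower and 25.7% higher (edgeR's quasi-likelihood test, adjusted p under 0.05). The median log2 fold change of the members was -0.19 and that of all genes 0.00389. Both miR3124_mimic libraries lay below both control libraries for 65 members, against 36.3% of all genes. Of the 45 tested 60S genes 38 fell, with a median of -0.21, and of the 28 tested 40S genes 21 fell, with a median of -0.12.

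RPS29, a zinc-binding protein of the small subunit that holds the CCCGCGA match shown above, had the largest fall of all members. Its level was 90.1 and 101.5 CPM in miRcontrol and 37.2 and 34.9 CPM in miR3124_mimic. In the other groups it was 105.4 and 95.4 CPM (miR200b_mimic), 109.6 and 97.1 CPM (miR92b_inhibitor) and 86.5 and 89.5 CPM (3-miRNA mixed group). The miR3124_mimic libraries thus stood apart from all 8 others, with a log2 change against miRcontrol of -1.41 ± 0.0665 (SE, adjusted p = 3.82e-23). RPS29 was the single member past a fold of 2 with an unadjusted p under 0.05, the criterion of the study, which 8.81% of all genes passed in this group. RPL3, which also holds the match in its coding sequence, fell by 0.20. RPL27A had a log2 change of -0.02 (adjusted p = 0.652). Its match, at chr11:8682684-8682690 in the 5′UTR of RPL27A-201, lies upstream of its annotated TOP start at chr11:8682792. An mRNA from that start would lack the match. The part of the match in these values was not tested.

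RPS12, a protein of the beak of the small subunit, was at 285.7 and 307.1 CPM in miRcontrol and 173.9 and 180.7 CPM in miR3124_mimic, a log2 change of -0.74 ± 0.0446 (SE, adjusted p = 3.32e-19). RPLP1, an acidic protein of the stalk that recruits elongation factors, went from 570.6 and 583.1 to 368.6 and 343.9 CPM, a log2 change of -0.70 ± 0.0382 (adjusted p = 1.1e-20). RPL36 fell by 0.49 and RPL17 by 0.45. For each of these genes no miR3124_mimic library reached the lowest control library. At the other end, RPL22 was at 323.5 and 312.7 CPM in miRcontrol and 313.5 and 316.5 CPM in miR3124_mimic, so these groups overlapped.

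Most of the members rose in miR92b_inhibitor. Of the 73 tested, 62 rose and 2 fell, where 17.5% of all genes were higher and 18.2% lower, and the median log2 fold change was 0.21 against -0.00611 for all genes. Both inhibitor libraries were above both control libraries for 63 members, against 32.1% of all genes. None passed a fold of 2, which with an unadjusted p under 0.05 was met by 2.63% of all genes. The largest rise was that of RPL36, from 218.5 and 211.7 CPM to 298.1 and 284.1 CPM, a log2 change of 0.44 ± 0.0421 (SE, adjusted p = 1.26e-11). RPS4X, the X-linked copy of a small-subunit protein, went from 480.1 and 484.2 to 623.3 and 616.1 CPM (0.36 ± 0.0343, adjusted p = 7.29e-12). RPL35 rose by 0.34, RPS6 by 0.33 and RPL5 by 0.31 on the log2 scale. In each of these 5 genes the inhibitor libraries stood above all other libraries.

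The members that fell with the inhibitor were RPS2 and RPL3. RPS2, a protein of the mRNA entry channel, was at 936.0 and 899.1 CPM in miRcontrol and 819.5 and 774.6 CPM with the inhibitor, a log2 change of -0.20 ± 0.0359 (adjusted p = 1.12e-05). RPL3, which lies near the peptidyl transferase centre, fell by 0.12 (adjusted p = 0.00295), and without the second library of either group this call was lost. RPL10A had a log2 change of -0.09 without a call (adjusted p = 0.0609). Other coding genes whose principal transcript is shorter than 1000 bases, 778 of them tested, had a median of 0.07 in this comparison, and its part in the members' median was not tested.

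**Figure D2:**
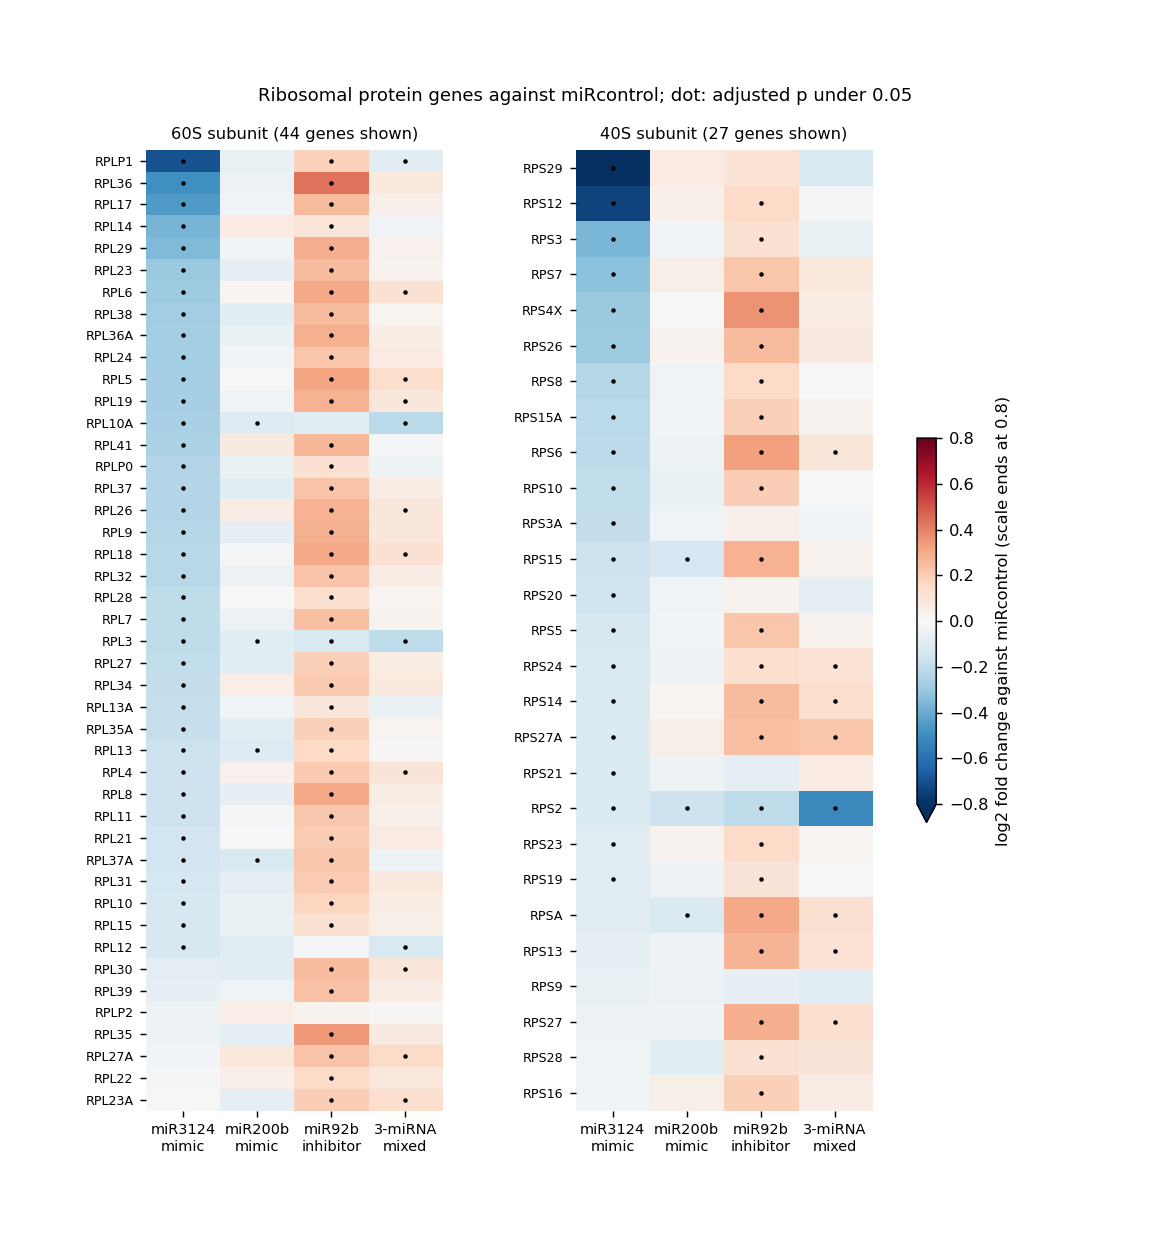
Log2 fold change against miRcontrol (colour, cut at 0.8 either way, so that RPS29 at -1.41 lies past the end) of 71 of the 73 tested members, by subunit, in the 4 transfected groups, ordered by the value in miR3124_mimic, with a dot for an adjusted p under 0.05. The first column is almost all blue, the third almost all red, and the rows of RPS2, RPL3, RPL10A, RPL12 and RPS9 lie below 0 in all 4, not all with a call.

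Few members changed in miR200b_mimic. Of the 73 tested, 7 fell and 0 rose, where 19.1% of all genes were lower and 21.4% higher, and 9.59% of the members fell. With library totals in place of RLE factors 12 fell. The median log2 fold change was -0.04 and the widest values were -0.16 and 0.08. The members that fell were RPS2, RPS15, RPL37A, RPSA, RPL10A, RPL13 and RPL3. RPS2 was at 803.5 and 834.6 CPM against 936.0 and 899.1 CPM in miRcontrol (-0.16 ± 0.0360, adjusted p = 0.000211). RPL37A, which holds the CAGTATT match in the long 3′UTR of its 3647-base annotated transcript, fell by 0.12. RPL11 and RPS23, with the same match, had log2 fold changes of -0.01 and 0.03 without a call. Both libraries were below both controls for 30 members, against 33.4% of all genes, and 5.7% of all genes but no member passed a fold of 2 with an unadjusted p under 0.05. The count of falls was 2 without the first miRcontrol library. RPL3, the weakest of these calls (adjusted p = 0.0367), was lost with TMM factors (adjusted p = 0.0532). The calls of RPS15, RPL37A, RPSA and RPL10A were each lost with a library left out, RPSA and RPL10A without the second miR200b_mimic library (adjusted p = 0.353 and 0.326).

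In the 3-miRNA mixed group most members had no call. Of the 73 tested, 51 had none, 17 rose and 5 fell. The rises were 23.3% of the members, near the 21.5% of all genes that were higher, and the falls 6.85%, below the 21.1% of all genes that were lower, and the median log2 fold change was 0.06 against 0.00300 for all genes. The rises were small, led by RPS27A, made as a fusion with ubiquitin, from 347.1 and 353.2 to 411.7 and 405.8 CPM (0.22 ± 0.0378, adjusted p = 3.16e-06). RPL27A rose by 0.15, RPL5 by 0.14, RPS14 by 0.14 and RPL23A by 0.14. The largest fall was that of RPS2, to 639.3 and 642.1 CPM (-0.52 ± 0.0361, adjusted p = 1.19e-16). RPL10A fell by 0.22, RPL3 by 0.20, RPL12 by 0.12 and RPLP1 by 0.09 on the log2 scale, the last with an adjusted p of 0.0442. The RPLP1 call was lost with DESeq2 (adjusted p = 0.0607), TMM factors (0.0765) and library totals (0.0838), and with either control library or either mixed library left out. The calls of RPL12 and RPL23A were lost without the first miRcontrol library, and that of RPL12 also without the second mixed library. RPL10A went from 366.3 CPM in each control library to 312.1 and 317.9 CPM. Both libraries were above both controls for 40 members, against 34.9% of all genes, and 5.42% of all genes but no member passed a fold of 2 with an unadjusted p under 0.05. Without the first miRcontrol library 9 members rose and 4 fell, and without the second library of the mixed group 7 rose and 3 fell, with a median of 0.03.

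The mixed group was also set against each single transfection. Against miR3124_mimic, 64 members were higher and 1 lower, where the background was 25.3% higher and 23.8% lower, with a median log2 difference of 0.22. Against miR92b_inhibitor, 1 was higher and 61 lower, where the background was 19.7% and 19.9%, with a median of -0.16. Against miR200b_mimic, 32 were higher and 5 lower, where the background was 18.2% and 20.4%, with a median of 0.07. These 37 calls became 24 without the second miR200b_mimic library and 17 without the second library of the mixed group. By their medians, the members of the mixed group lay between those of miR3124_mimic and miR92b_inhibitor. RPS2 was the member lower than in miR3124_mimic (-0.41, adjusted p = 2.11e-13), and it was also lower than in miR200b_mimic (-0.35) and miR92b_inhibitor (-0.32), so its level in the mixed group was below that of every other group. RPS29 was 1.29 higher on the log2 scale in the mixed group than in miR3124_mimic (adjusted p = 2.33e-21). These 3 comparisons share the libraries of the mixed group, and the comparisons with miRcontrol share the control libraries.

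**Figure D3:**
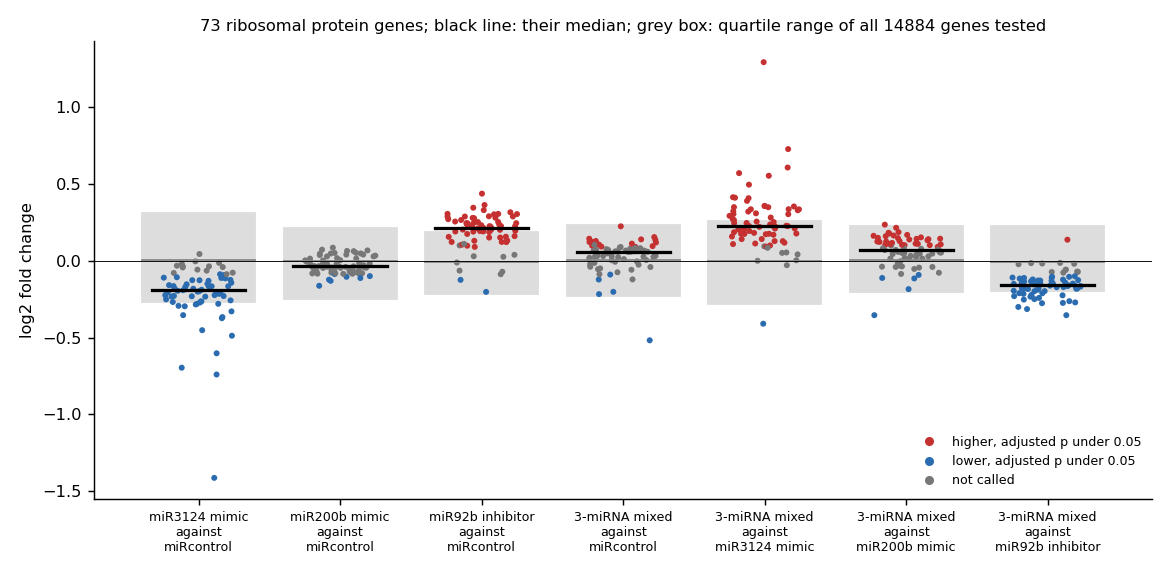
Log2 fold change (vertical axis) of the 73 tested members, a point each, in 7 comparisons, red for higher and blue for lower at an adjusted p under 0.05, grey for no call. The black line is the members' median, from -0.19 to 0.22, and the grey box is the quartile range of all 14884 genes tested, whose median (grey line) stayed near 0.

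Over all 5 groups, 71 of the 73 members differed (edgeR's quasi-likelihood F test, adjusted p under 0.05), where 77.0% of all genes did. The highest group mean was in miR92b_inhibitor for 66 members, in miRcontrol for 5, and in miR200b_mimic and the mixed group for 1 each. The lowest was in miR3124_mimic for 64, in miR200b_mimic for 5, in the mixed group for 3 and in miRcontrol for 1. For 60 members the mean was highest with the inhibitor and lowest with the miR-3124-5p mimic. The commonest set of calls against miRcontrol, a fall in miR3124_mimic and a rise in miR92b_inhibitor without a call in the other groups, was that of 36 members. The same calls with a rise in the mixed group were those of 10 more. RPL3 and RPS2 were the members that fell in all 4 transfected groups, and for each of them leaving out a single library ended a call, that of RPS2 in miR3124_mimic and those of RPL3 in miR200b_mimic and miR92b_inhibitor.

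The width of the response differed among members. The group means of RPS29 spanned 1.52 on the log2 scale, those of RPL36 0.93, RPS12 0.89, RPLP1 0.88 and RPL17 0.71. The narrowest were RPS9 at 0.09, RPLP2 at 0.09, RPL12 at 0.13, RPL22 at 0.17 and RPS21 at 0.17. RPLP2 stayed between 341.4 and 374.2 CPM in all 10 libraries (F test over 5 groups, adjusted p = 0.206). RPS9 was at 16.1 to 20.6 CPM (adjusted p = 0.944). It is listed on 10 rows with 3101 counts in all, where each member listed once had at least 14382. Its narrow range was therefore not read as stable expression. RPLP2 and RPS9 are the members without a call in the F test.

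**Figure D4:**
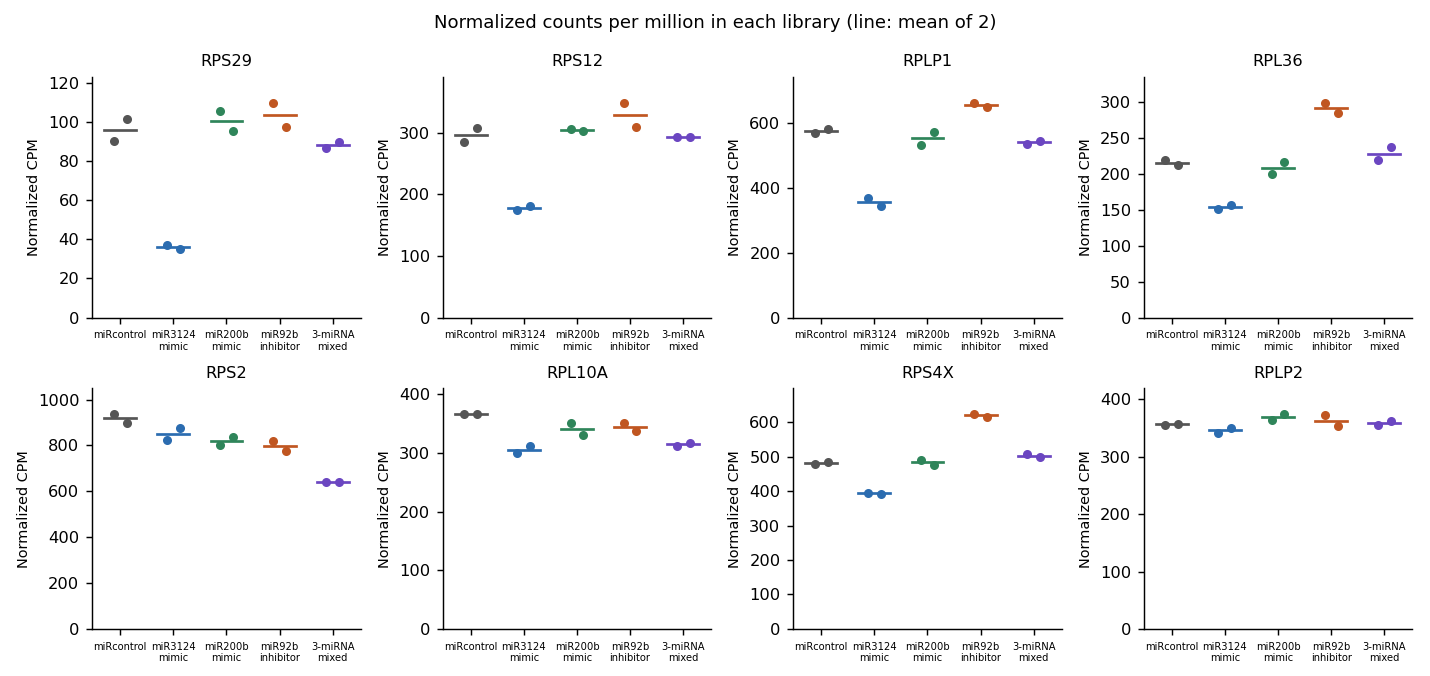
Normalized CPM (vertical axes from 0, each with its own scale) of 8 members in each library, a point per library and a line at the mean of 2, by group. RPS29, RPS12, RPLP1 and RPL36 are lowest in miR3124_mimic, RPS2 is lowest in the 3-miRNA mixed group at 639.3 and 642.1 CPM, and RPLP2 stays between 341.4 and 374.2 CPM.

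The stalk proteins did not move alike in their calls. RPLP0, the base of the stalk, fell by 0.23 in miR3124_mimic and rose by 0.12 with the inhibitor, a call lost without the first inhibitor library. RPLP1 fell by 0.70 and rose by 0.19 in the same comparisons. RPLP2, which pairs with RPLP1 on the stalk, had log2 fold changes of -0.04 and 0.03 without a call. The difference between these genes was not tested.

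The p53-related members moved with the main pattern. RPL5 was at 630.9 and 631.2 CPM in miRcontrol, 530.7 and 518.8 CPM in miR3124_mimic, 805.1 and 765.0 CPM with the inhibitor, and 694.9 and 698.6 CPM in the mixed group. It fell by 0.27, rose by 0.31 and rose by 0.14 there. RPL11, its partner in the particle with 5S rRNA, fell by 0.17 in miR3124_mimic and rose by 0.21 with the inhibitor. RPS6 fell by 0.21, rose by 0.33 and, in the mixed group, rose by 0.09 (adjusted p = 0.03), a call lost without either control library or the second library of the mixed group. RPSA, which is also known as a laminin receptor, had -0.09 without a call in miR3124_mimic (adjusted p = 0.0531), fell by 0.11 in miR200b_mimic, and rose by 0.30 with the inhibitor.

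Members with a close paralogue were compared with it. RPL36A fell by 0.27 in miR3124_mimic and rose by 0.29 with the inhibitor, while RPL36AL had 0.09 and 0.09 without a call there and rose by 0.27 in miR200b_mimic. RPS27 had -0.04 without a call in miR3124_mimic and RPS27L 0.00, and with the inhibitor they rose by 0.29 and 0.19. RPL22 had -0.01 without a call in miR3124_mimic, where RPL22L1 fell by 0.62 from 19.6 and 18.6 CPM to 12.7 and 12.2 CPM. RPL39 had -0.07 without a call and RPL39L fell by 0.69, from 13.5 and 10.6 to 7.03 and 7.92 CPM. RPL7L1 fell by 0.35 and rose by 0.35 with the inhibitor, and RPL26L1 had 0.00 and rose by 0.26. Of the 7 paralogues tested, 4 fell and 0 rose in miR3124_mimic, and 4 rose and 0 fell with the inhibitor, against 25.3% of all genes lower and 25.7% higher, and 17.5% higher and 18.2% lower. In miR200b_mimic 1 of the 7 rose and 2 fell, RPS27L by 0.28 and RPL26L1 by 0.17. Of all genes, 21.4% were higher and 19.1% lower there. FAU, a ubiquitin-fused gene outside the symbol rule, had a log2 change of -0.03 without a call in miR3124_mimic and rose by 0.27 with the inhibitor. Reads shared between such near-identical genes, or with pseudogenes, could have been split by the counting, so these values are uncertain.

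Members with and without a TOP start were set side by side, where 25.3% of all genes were lower in miR3124_mimic and 17.5% higher with the inhibitor. In miR3124_mimic, 33 of 43 tested members with a TOP start fell (median -0.17), and 15 of 16 without one fell (median -0.24). With the inhibitor, 38 of 43 rose (median 0.20), and 13 of 16 rose and 1 fell (median 0.22). The classes rest on the annotated first base alone. Some members counted without a TOP start, RPL10A among them, have a pyrimidine run within the 15 bases from it. RPS29 was classed by the entry described above, which may not be the start of its mRNA. The 16 are thus not shown to lack the motif, and the difference was not tested.

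Related genes were listed beside the members. The counts of these lists stand against 25.7% of all genes higher and 25.3% lower in miR3124_mimic, 21.4% and 19.1% in miR200b_mimic, 17.5% and 18.2% with the inhibitor, and 21.5% and 21.1% in the mixed group. Of 18 other mRNAs known for a TOP motif, such as translation factors, 15 fell and 0 rose in miR3124_mimic (median -0.22), and 10 rose and 4 fell with the inhibitor (median 0.15). EEF2, the translocation factor of the ribosome, fell by 0.45 in miR3124_mimic, from 2368 and 2331 to 1692 and 1749 CPM, and had 0.04 without a call with the inhibitor. GAS5, a TOP-bearing noncoding RNA that hosts small nucleolar RNAs, fell by 0.48 in miR3124_mimic, rose by 1.17 with the inhibitor from 30.1 and 35.6 to 74.6 and 73.3 CPM, and rose by 0.55 in the mixed group. HNRNPA1 was lower in all 4 groups, by 0.52, 0.23, 0.10 and 0.37 on the log2 scale in the order given above.

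Genes that build ribosomes were also called in these directions. Of 25 genes of rRNA synthesis and processing, 17 fell and 1 rose in miR3124_mimic (median -0.26), and 18 rose and 0 fell with the inhibitor (median 0.22). PES1, a factor of 60S maturation, fell by 1.0 and rose by 0.40 there. Of 20 chaperones and assembly factors of ribosomal proteins, 9 fell and 1 rose in miR3124_mimic (median -0.13) and 17 rose and 1 fell with the inhibitor (median 0.25). RRS1, which takes part in the assembly of the 5S particle, fell by 0.47 and rose by 0.59. In the mixed group 11 of these 20 rose and 0 fell, with a median of 0.17, and 11 of the 25 rose and 3 fell, with a median of 0.09.

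The mitochondrial ribosomal protein genes spread more widely than the cytosolic ones. Of 76 tested, 35 fell and 7 rose in miR3124_mimic, with a median of -0.14 and an SD over genes of 0.264 against 0.202 for the members. With the inhibitor 49 rose and 1 fell, with a median of 0.24 and an SD of 0.196 against 0.116. Over all genes tested the SD was 0.672 in miR3124_mimic and 0.480 with the inhibitor. The mitochondrial ribosomal protein genes held 0.350% of the counts in miRcontrol, against 3.25% for the members. The part of counting error in their wider spread was not tested. In miR200b_mimic 8 rose and 8 fell, and in the mixed group 35 rose and 7 fell, with a median of 0.13.

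Genes around mTORC1 did not share a direction. Of 17 tested, 7 fell and 3 rose in miR3124_mimic (41.2% and 17.6%), and 6 fell and 1 rose with the inhibitor (35.3% and 5.88%). RPS6KB2, a kinase of the RPS6 kinase family, fell by 1.95 in miR3124_mimic, from 50.6 and 52.0 to 12.6 and 13.9 CPM, and AKT1S1, an mTORC1 inhibitor, fell by 1.71. EIF4EBP2, a repressor of cap-dependent translation, fell by 1.18 in miR3124_mimic, by 0.54 with the inhibitor and by 0.92 in the mixed group, and rose by 0.64 in miR200b_mimic. EIF4G1, the scaffold of the cap-binding complex, fell by 0.76 in miR3124_mimic.

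**Figure D5:**
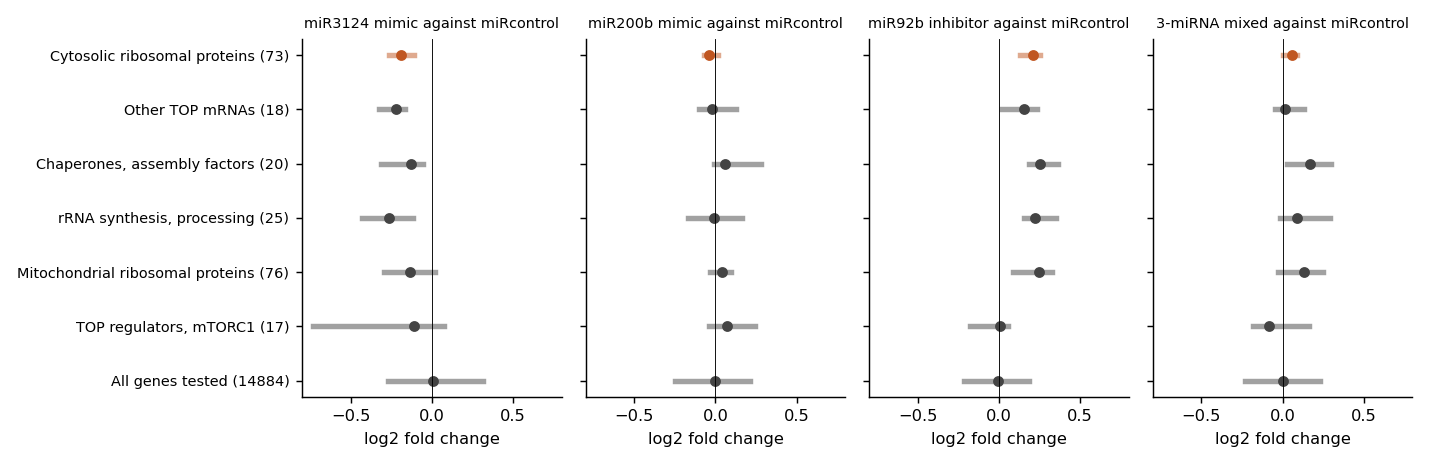
Median (point) and quartile range (bar) of the log2 fold change against miRcontrol of the 73 tested members, of 5 related gene lists and of all 14884 genes tested, one panel per transfected group, with the number of genes tested in brackets. The members' median is -0.19, -0.04, 0.21 and 0.06 from left to right, and that of all genes stays near 0.

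Of the 77 members, 4 were not tested. Among them, RPS25 had 0 counts in all 10 libraries, which allows up to 3 counts in each, RPS18 had 1 count and RPL7A 41 counts over the 10 libraries. The untested symbols and RPS9, which had 3101 counts, are the 5 members listed on more than 1 row of the files, and the 72 members listed once each had at least 14382 counts. The low values were therefore not read as low expression. Read-through symbols took 1578 counts for RPL36A with HNRNPH2, beside 37973 for RPL36A alone, and 218 for RPS10 with NUDT3, beside 73564.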

How the data were processed

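The authors trimmed reads of directional mRNA libraries, mapped them with TopHat (GRCh38 per the labels) and deposited raw read counts per gene without normalization. The counting tool is not given in the sources used here. Each file had 58173 rows, of which 5771 repeated a symbol, and repeated symbols were summed. With edgeR 4.0.16 in R 4.3.3 (limma 3.58.1), genes were filtered by filterByExpr, normalized by RLE (factors 0.985 to 1.016), and all 10 libraries were fitted in one quasi-likelihood model by group (common dispersion 0.000751). P-values were adjusted over all 14884 genes by Benjamini-Hochberg, and 0.05 was the threshold. CPM are counts scaled to the normalized library size. The model was tested on simulated data.

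Transcripts and coordinates came from GENCODE v29 (GRCh38), using the shortest coding transcript of the best APPRIS class, and miRNAs and promoters from RefSeq (GRCh38.p14).

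Genes were named when they were among the 5 largest rises or falls in a comparison with miRcontrol (adjusted p under 0.05, both libraries on 1 side of both controls), the 5 widest or narrowest over groups, not tested, or fixed for their role (RPLP0, RPLP1, RPLP2, RPL5, RPL11, RPS6, RPSA, RPL22, RPL36A, RPL39, RPS27, RPS4X), and from related lists when among the 4 with the lowest p over groups. Paralogues and ubiquitin-fused genes were named in full, except a Y-linked paralogue, which is counted only. Some genes that the rule would name are counted but not reported here by name. Genes named beyond this, such as those with a seed match, RPL13 and the remaining members called in miR200b_mimic, were chosen after their values were seen. The members and lists were chosen with earlier results of these data known.

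Replicate numbers did not pair the libraries (correlation of deviations between groups from -0.0377 to 0.0567 over 11204 genes, and from -0.4 to 0.281 over the 73 tested members). Alternatives were TMM factors, library totals, normalization without the members, DESeq2 1.42.0, edgeR's exact test, only the groups compared, no filter, a minimum of 10 counts per library, blocking on the replicate number, the largest row of a repeated symbol, and each library left out.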

Additional observations from a re-analysis of the deposited data

How the results depend on the processing

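No median and no called change of a named member reversed its sign under any alternative run. Named members without a call in a comparison were not followed there, and their signs may differ. Among alternatives that kept all libraries, 76 of 77 counts of members called stayed within 1.5 times; with library totals in place of RLE factors, 12 members were called in miR200b_mimic against miRcontrol. The median in miR3124_mimic was -0.16 with library totals. In the share of counts, adding ubiquitin-fused, paralogue and pseudogene symbols gave 3.42%, 3.04%, 3.33%, 3.92% and 3.53% for miRcontrol, miR3124_mimic, miR200b_mimic, miR92b_inhibitor and the mixed group, and the share outside the mitochondrial genome, an alternative chosen after seeing the data, gave 3.46%, 3.10%, 3.38%, 3.97% and 3.57%. Leaving out each library in turn, the members called against miRcontrol ranged from 51 to 61 in miR3124_mimic, 2 to 9 in miR200b_mimic, 54 to 65 in miR92b_inhibitor and 10 to 23 in the mixed group. For the mixed group against miR3124_mimic, miR200b_mimic and miR92b_inhibitor they ranged from 57 to 66, from 17 to 37 and from 43 to 63. Against miR200b_mimic, 24 were called without its second library and 17 without the second mixed library. The medians against miRcontrol ranged from -0.20 to -0.16 in miR3124_mimic, -0.04 to -0.02 in miR200b_mimic, 0.18 to 0.24 in miR92b_inhibitor and 0.0279 to 0.0595 in the mixed group. With a replicate block, 60, 8, 65 and 23 members were called against miRcontrol, and the block moved no count by over 1.5 times; the replicate numbers do not pair the libraries. Of the calls of named members, 7 of 630 values lost the threshold with all libraries kept and 44 of 630 with a library left out. The calls ended by a left-out library were those of RPL12, RPS14, RPS2, RPS21 and RPS27A in miR3124_mimic, RPL10A, RPL3, RPL37A, RPS15 and RPSA in miR200b_mimic, RPL3, RPLP0 and RPS12 in miR92b_inhibitor, and RPL12, RPL23A, RPLP1, RPS27, RPS6 and RPSA in the mixed group, with adjusted p then from 0.0508 to 0.37. When a group kept 1 library, it was assumed to vary like the others. The cause of these changes was not tested.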
